A study of Mus musculus with 22 samples.

Results

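Cytochrome P450 genes outside the CYP1 family were followed through whole mouse pancreas. The members were every probe whose gene symbol had the form of a mouse P450 (Cyp, a number, a letter, a number), without Cyp1a1, Cyp1a2 and Cyp1b1. This gave 130 of the 30146 probes and 90 of the 21450 symbols in the table. A probe was taken as detected with at least 10 counts in at least 3 of the 22 libraries. By this measure 53 member probes for 42 genes were detected, or 40.8% of the members, against 62.3% of all probes (18767 probes). The other 77 member probes were not, and 5 of them had 0 counts in every library.

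The study asked how low-dose dioxin exposure through pregnancy affects the pancreas of mother and offspring. C57Bl/6 females were injected under the skin 2 times per week with TCDD (a dioxin, which acts through the aryl hydrocarbon receptor) at 20 ng/kg per day or with corn oil as Control, from before mating until birth. Whole pancreas of dams and of 1 male and 1 female pup of a litter was taken on the day of birth. The labels give 4 TCDD dams, 4 Control dams, 4 TCDD and 3 Control female pups, and 4 TCDD and 3 Control male pups. Each library is numbered here by its dam or litter. RNA was counted with TempO-Seq, which joins 2 short oligonucleotides lying side by side on a transcript and sequences the product. Library totals were 11223816 to 34911410 counts, and a floor of 3 counts was worth 0.0859 to 0.267 counts-per-million of the total (CPM). This floor covers counting error only.

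The libraries fell into 2 classes that crossed their stage labels. They were selected on measured values: a library was of newborn type where the fetal plasma protein gene Afp had more counts than the mature pancreatic lipase gene Pnlip (14 libraries), and of adult type otherwise (8 libraries). The adult type held the libraries labelled TCDD dams 8 and 11, Control dams 5 and 7, TCDD male pups 8, 10 and 11, and TCDD female pup 6. In 8 libraries the class went against the stage label, namely the 4 adult-type pups just named and the newborn-type libraries labelled TCDD dams 6 and 10 and Control dams 2 and 4. Together with sex-linked genes, 13 libraries went against a label. The adult type held 6 TCDD and 2 Control libraries, and the newborn type 6 TCDD and 8 Control libraries. Differences between the classes are therefore given as descriptions with no test, intervals on pooled counts cover counting error only, and groups named by label hold for the labels only.

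P450 enzymes are heme proteins that insert oxygen into lipids, steroids, vitamins and foreign compounds. Most sit in the endoplasmic reticulum and take electrons from P450 reductase, and a few sit in mitochondria and are fed by ferredoxin. The CYP2, CYP3 and CYP4 families are best known from liver, where they clear drugs and oxidise fatty acids, and other families make or break down bile acids, steroid hormones, vitamin D and retinoic acid. In rodent liver many of them are switched on or off around birth.

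The promoters of 4 members are shown because these genes mark the ends of the pattern described below: Cyp2d26 and Cyp3a16 differed most between the classes, Cyp2e1 had the highest count summed over its probes, and Cyp20a1 had the highest single probe. RefSeq promoters (build GRCm38.p6, 250 bases before to 50 after the gene's start) were at hand for 69 of the 90 genes and for 32 of the 42 detected ones. Capitals mark matches on either strand to TATAAA (the TATA box), GTTAAT (a half-site of hepatocyte nuclear factor 1) and GCGTG (the core of the dioxin response element).
Cyp2d26 promoter, chr15:82794196-82794495, minus strand: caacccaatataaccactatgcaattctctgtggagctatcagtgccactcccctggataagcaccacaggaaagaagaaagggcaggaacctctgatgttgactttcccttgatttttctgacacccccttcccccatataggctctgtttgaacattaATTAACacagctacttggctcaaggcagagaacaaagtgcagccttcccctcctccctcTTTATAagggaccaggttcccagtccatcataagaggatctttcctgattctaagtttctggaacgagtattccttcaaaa
Cyp3a16 promoter, chr5:145469674-145469973, minus strand: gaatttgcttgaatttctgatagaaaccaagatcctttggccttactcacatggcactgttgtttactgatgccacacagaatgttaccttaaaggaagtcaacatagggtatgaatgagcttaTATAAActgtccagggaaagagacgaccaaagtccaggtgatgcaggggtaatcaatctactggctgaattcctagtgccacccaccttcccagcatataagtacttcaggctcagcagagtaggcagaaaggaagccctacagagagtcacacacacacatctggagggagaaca
Cyp2e1 promoter, chr7:140763569-140763868, plus strand: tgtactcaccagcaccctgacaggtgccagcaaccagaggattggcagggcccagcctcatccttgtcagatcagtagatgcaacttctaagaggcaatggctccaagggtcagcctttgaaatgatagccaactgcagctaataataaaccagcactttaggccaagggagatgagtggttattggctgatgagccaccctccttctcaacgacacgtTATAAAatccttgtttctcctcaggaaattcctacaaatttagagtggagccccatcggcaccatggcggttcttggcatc
Cyp20a1 promoter, chr1:60343050-60343349, plus strand: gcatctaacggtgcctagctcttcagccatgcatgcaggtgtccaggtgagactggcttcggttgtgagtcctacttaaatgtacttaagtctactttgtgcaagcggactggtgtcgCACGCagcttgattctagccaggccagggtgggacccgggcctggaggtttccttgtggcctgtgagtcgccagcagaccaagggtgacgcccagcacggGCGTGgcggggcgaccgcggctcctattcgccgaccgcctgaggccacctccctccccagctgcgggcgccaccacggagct
In these windows the only GTTAAT match was in Cyp2d26 and the only GCGTG matches were 2 in Cyp20a1, which held no TATA box match. The TATAAA match stood 31 bases before the start in Cyp2e1 and Cyp2d26, and in Cyp2d26 it was on the opposite strand. In Cyp3a16 the exact string stood 126 bases before the start. No matches overlapped each other in these 4 windows. Over 34 promoters of detected members, 47.1% held TATAAA, 14.7% GTTAAT and 14.7% GCGTG. Over 45 promoters of undetected members the shares were 31.1%, 11.1% and 20.0%. Over all 32851 promoters of the table, each 300 bases long, they were 13.6%, 7.1% and 32.4%. A match is a string of letters and not a shown site of binding.

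As a family, P450 transcripts were scarcer in adult-type libraries. The 130 probes summed to 25.4, 36.5 and 44.9 CPM (lowest, median and highest) in the adult type and to 180.5, 239 and 348 CPM in the newborn type. The classes did not overlap. Between 5 and 14 members reached 10 counts in an adult-type library, and between 25 and 48 in a newborn-type library. Of the 53 detected probes, 52 had a lower mean CPM in the adult type, where 97.0% of all detected probes did. The libraries did not overlap for 30 probes, all lower in the adult type, and 61.4% of all detected probes lay apart in that direction. No member lay apart in the other direction, as 0.368% of all probes did. By total CPM the count in one direction is thus near or under the background. In bulk tissue, fewer cells of a type and less RNA per cell cannot be told apart.

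Much of this fall was shared by the whole library. The 20 most abundant probes took 69.8 to 74.7% of counts in the adult type and 47.1 to 59.7% in the newborn type. The median log2 ratio of adult-type over newborn-type mean CPM was -1.95 over all 18767 detected probes and -4.18 over the 53 members. Of the 53, 41 lay below the median of all probes. Most members were detected through the newborn type. There 52 of the 53 had 10 counts in at least 3 libraries, and in the adult type 10 of the 53 did. Low ratios of the members are thus partly built in by the detection rule. With TMM factors, which correct for a few dominant transcripts, the median of all probes was -0.15 and that of the members -2.27. On that scale 41 members were lower and 12 higher in the adult type, and the summed members stood at 51.2, 78.8 and 109 CPM in the adult type against 109, 151 and 196 CPM in the newborn type. The 12 with a higher adult-type mean were Cyp39a1, Cyp2a4, Cyp4f17, both Cyp4f13 probes, Cyp3a13, Cyp4b1, Cyp21a1, Cyp2j6, Cyp27a1, Cyp2s1 and Cyp2r1. Except for Cyp39a1, these were lower in the adult type by total CPM and turned with the scaling. On the TMM scale the libraries lay apart for 12 members lower and 1 higher in the adult type, and for 2171 lower and 1264 higher of all 18767 detected probes. Ratios below are on the scale of total CPM, and a member falls with the bulk of transcripts at about -1.95.

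**Figure D1:**
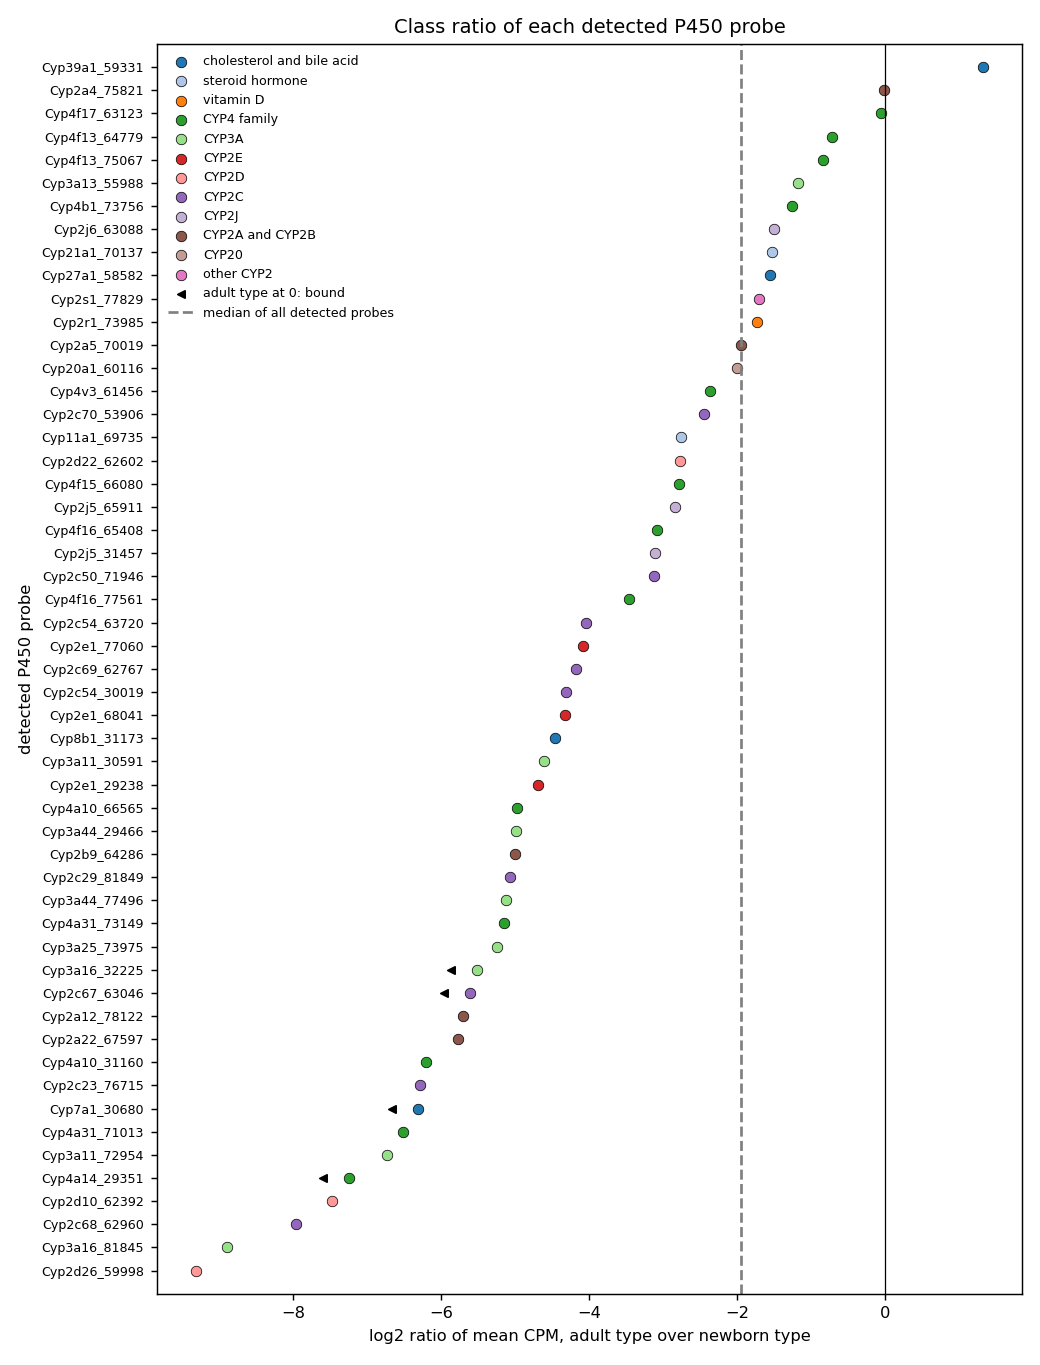
Log2 ratio of mean CPM, adult type over newborn type, for each of the 53 detected P450 probes, coloured by role. The dashed line is the median of all 18767 detected probes (-1.95), the solid line is 0, and arrows mark the 4 probes at 0 in the adult type, whose ratio is a bound. Cyp39a1 is the only probe right of 0, and 41 probes lie left of the dashed line; with TMM factors 12 probes would lie right of 0.

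Among the genes of cholesterol and bile acid metabolism, the members went separate ways. Cyp7a1, the rate-limiting enzyme of bile acid synthesis, had 0 counts in all 8 adult-type libraries and 0.586, 1.75 and 3.94 CPM (lowest, median, highest) in the 14 of newborn type. Against a floor of 3 counts over the adult type it was at least 79.7-fold lower there. Cyp8b1 is the sterol hydroxylase that steers synthesis toward cholic acid. Its detected probe stood at 0 to 0.119 CPM in the adult type and 0.234 to 1.97 CPM in the newborn type, again without overlap by total CPM. Cyp27a1, the mitochondrial sterol hydroxylase of the alternative route, stood at 0.209 to 0.885 and 0.524 to 2.65 CPM in adult-type and newborn-type libraries, with overlap.

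Cyp39a1, an oxysterol hydroxylase, was the only detected member with a higher mean in the adult type. It stood at 2.61, 5.45 and 7.44 CPM in the adult type and 1.16, 1.96 and 3.56 CPM in the newborn type. The classes overlapped in 1 adult-type library, TCDD dam 11. The log2 ratio was 1.33 by total CPM and 3.15 with TMM factors. Cyp7b1 and Cyp46a1, the other sterol hydroxylases measured, were not detected (at most 9 and 3 counts in a library).

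The steroid hormone enzymes lay at the edge of detection. Cyp11a1, which cleaves the cholesterol side chain, had a detected probe at 0 to 0.238 CPM in the adult type and 0 to 0.83 CPM in the newborn type. Cyp21a1, the steroid hydroxylase of the adrenal cortex, stood at 0 to 0.465 CPM in the adult type and 0 to 1.52 CPM in the newborn type. Neither probe separated the classes. Cyp11b1, Cyp11b2, Cyp17a1 and Cyp19a1 were not detected. The 5 adrenal cortex markers Star, Nr5a1, Mc2r, Hsd3b1 and Mrap summed to 0 to 2.87 CPM in the adult type and 1.06 to 4.47 CPM in the newborn type. The defining marker Nr5a1 was at 0 in 7 of 8 adult-type and 8 of 14 newborn-type libraries.

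Of the vitamin D enzymes, only Cyp2r1, the liver enzyme that carries out the first hydroxylation, was detected. Its detected probe stood at 0.157, 0.508 and 1.137 CPM in the adult type and 1.15, 1.76 and 3.18 CPM in the newborn type. The classes were just apart for this probe (log2 ratio -1.72, or 0.07 with TMM factors). Summed over the 2 probes of the gene they overlapped, with an adult-type highest of 1.279 CPM and a newborn-type lowest of 1.146 CPM. Cyp27b1, which activates the vitamin, and Cyp24a1, which degrades it, had at most 10 and 5 counts in a library. The retinoic acid hydroxylases Cyp26a1, Cyp26b1 and Cyp26c1 were not detected, with at most 1, 7 and 8 counts. Not detected here means under the 10-count rule at this depth. Of 10 genes of retinoid handling, 5 were lower in the adult type without overlap by total CPM, under the 61.4% of all detected probes. With TMM factors 3 of the 10 were, where 2171 of all 18767 detected probes were. Among the 5 by total CPM was the retinoic acid-making Aldh1a2 (0.174 to 0.885 CPM in the adult type, 2.23 to 6.73 CPM in the newborn type).

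The CYP4 family, mostly omega-hydroxylases of fatty acids and eicosanoids, gave 13 detected probes for 9 of 17 genes. By total CPM 7 of the 13 were lower in the adult type without overlap, under the 61.4% of all detected probes. With TMM factors 4 of the 13 were, above the share of all detected probes (2171 of 18767). Cyp4v3, a fatty acid omega-hydroxylase and the mouse counterpart of the human gene mutated in Bietti dystrophy of the eye, was the most abundant. It stood at 2.89, 4.23 and 4.61 CPM in the adult type and 14.1, 18.7 and 28.2 CPM in the newborn type. Its log2 ratio of -2.37 was close to the median of all probes. Cyp4f16 (probe Cyp4f16_77561) stood at 0.128, 0.769 and 1.16 CPM in the adult type and 4.38, 8.05 and 12.4 CPM in the newborn type (log2 ratio -3.46).

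The Cyp4a genes, fatty acid hydroxylases under control of PPAR alpha in liver, were nearly absent from the adult type. Cyp4a14 had 0 counts in all 8 adult-type libraries and 1.43, 3.16 and 6.81 CPM in the newborn type, at least 151-fold lower in the adult type against the floor. Cyp4a31 (probe Cyp4a31_71013) stood at 0 to 0.174 CPM and 1.34 to 6.52 CPM in adult-type and newborn-type libraries, and the 2 Cyp4a10 probes behaved alike in direction, with log2 ratios of -6.21 and -4.98. These genes are near copies of each other, so a probe may count more than its own transcript. Other CYP4 probes sat well above the median of all probes, on the far side of the family. Cyp4b1, Cyp4f17 and Cyp4f13 (Cyp4f13_75067) had log2 ratios of -1.26, -0.05 and -0.83, and overlapping classes.

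The CYP3A genes, which oxidise steroids and many drugs, had 8 detected probes for 5 of 7 genes. By total CPM 7 of the 8 were lower in the adult type without overlap, where 61.4% of all detected probes were. With TMM factors 3 of the 8 were, where 2171 of all 18767 detected probes were. Cyp3a16, known from fetal and newborn mouse liver, led the group. Its main probe had 5 counts in all 8 adult-type libraries together, at 0, 0 and 0.119 CPM, and stood at 9.96, 17.1 and 35.5 CPM in the newborn type. The log2 ratio was -8.90, and every newborn-type library was far above every adult-type one. A second probe of the gene had 0 counts in the adult type and 0.443 to 2.18 CPM in the newborn type, and the remaining one had 0 counts everywhere.

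Cyp3a11, the main adult liver CYP3A of the mouse, had 0, 0 and 0.349 CPM by its more abundant probe in the adult type and 3.51, 5.26 and 9.70 CPM in the newborn type. With the libraries that go against the stage label left out, its log2 ratio of -6.73 became -8.49. Of its 7 adult-type counts, 6 were in TCDD male pup 8, so the second value rests on 1 count in Control dam 5. Cyp3a25 and Cyp3a44 followed the same direction. Cyp3a13, a member found in gut as well as liver, was the exception in size. It stood at 0.731, 1.54 and 2.35 CPM in the adult type and 2.38, 3.55 and 5.59 CPM in the newborn type, just apart, and the order turned with TMM factors (log2 ratio -1.18, and 0.62 with TMM).

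Cyp2e1, the ethanol- and acetone-oxidising P450, had the highest summed CPM of the family over its 3 probes. It stood at 0, 0.772 and 12.1 CPM in the adult type and 31.4, 52.8 and 74.0 CPM in the newborn type. The classes did not overlap for any of its 3 probes by total CPM, whose log2 ratios ran from -4.69 to -4.08, and overlapped for all 3 with TMM factors. Within the adult type the values were uneven. TCDD dam 8 had 12.1 CPM, TCDD dam 11 2.97 CPM, Control dams 5 and 7 had 2.60 and 1.137 CPM, TCDD female pup 6 had 0.236 CPM, and TCDD male pups 8, 10 and 11 had 0.407, 0.128 and 0 CPM. The 4 libraries labelled dams were thus above the 4 labelled pups of that class.

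Among the CYP2D genes, drug-metabolising enzymes, Cyp2d26 showed the widest gap of any detected member. It had 3 counts in the 8 adult-type libraries together, at 0, 0 and 0.119 CPM, and 7.43, 13.6 and 24.02 CPM in the newborn type. From pooled counts it was 646-fold lower in the adult type (95% exact interval 221 to 3135, counting error only). Cyp2d10 was 194-fold lower by the same measure (66.2 to 942). Cyp2d22 fell less, at 0 to 0.768 CPM in the adult type and 0.802 to 3.10 CPM in the newborn type. Without the libraries against the stage label, the log2 ratio of Cyp2d26 was -8.47 in place of -9.31.

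The CYP2C genes, epoxygenases and hydroxylases of arachidonic acid, drugs and bile acids, had 9 detected probes for 8 of 15 genes. Cyp2c68 stood at 0, 0 and 0.178 CPM in the adult type and 2.99, 4.86 and 11.6 CPM in the newborn type, 236-fold lower in the adult type from pooled counts (80.7 to 1148). Cyp2c67 had 0 counts in the adult type. Cyp2c70, which makes the muricholic acids of mouse bile, kept a clear level in both classes. It stood at 0.0581, 2.65 and 4.48 CPM in the adult type and 6.68, 13.7 and 24.3 CPM in the newborn type. One adult-type library, TCDD male pup 8, held 1 count of it, where the next lowest, TCDD male pup 10, held 20.

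The remaining CYP2 genes were low. Cyp2j6, an arachidonic acid epoxygenase, stood at 0.313, 0.84 and 1.92 CPM in the adult type and 1.68, 2.78 and 3.28 CPM in the newborn type, with overlap. The detected probe of Cyp2s1, a P450 of epithelia outside the liver, stood at 0.118 to 0.772 and 0.538 to 3.93 CPM in adult-type and newborn-type libraries. The detected probe of Cyp2a5, the coumarin hydroxylase, was at 0 to 0.716 CPM in the adult type and at 0 to 3.14 CPM in the newborn type. TCDD female pup 10 alone held 53 counts of this probe and no other library more than 15. Summed over the 3 probes of the gene, the newborn-type highest was 4.505 CPM and the highest count 76. Cyp20a1, an orphan P450 without a settled substrate, had the highest single probe of all members. It stood at 8.20, 10.1 and 12.2 CPM in the adult type and 26.1, 40.5 and 46.8 CPM in the newborn type, a log2 ratio of -2.01 at the median of all probes.

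**Figure D2:**
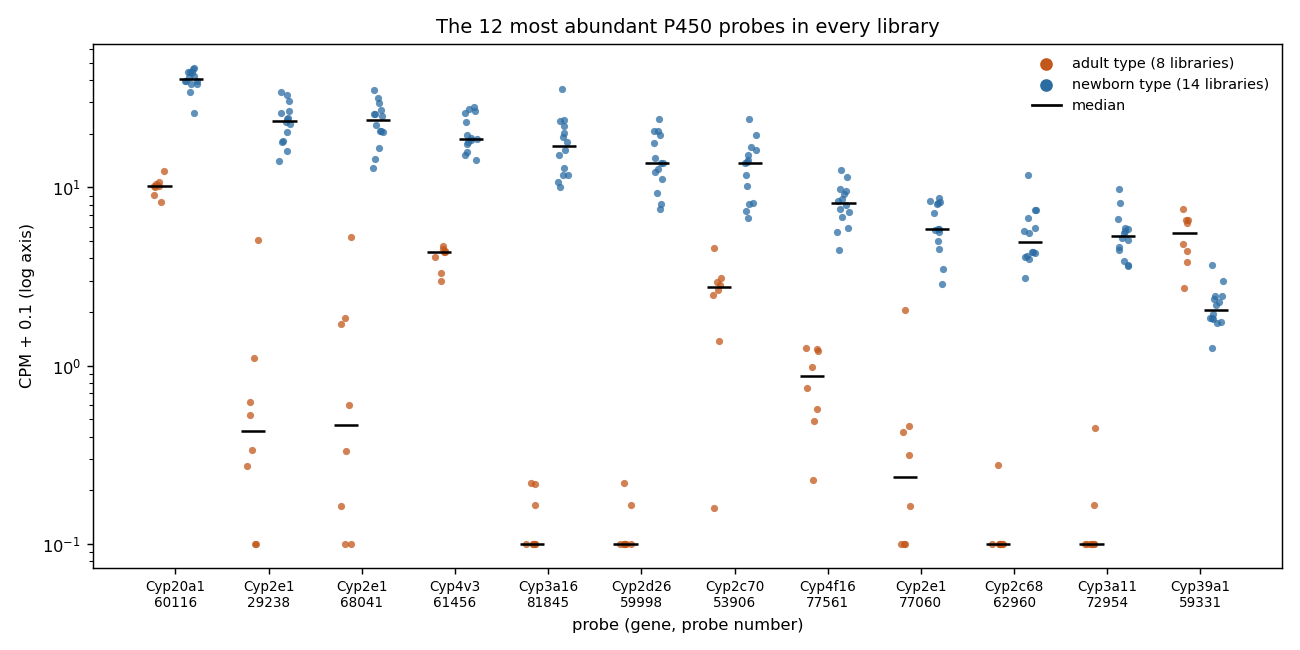
CPM plus 0.1 (log axis) of the 12 most abundant P450 probes in each of the 8 adult-type (orange) and 14 newborn-type (blue) libraries, with bars at the class median. Cyp20a1 and Cyp4v3 keep a tight level in both classes, Cyp3a16 and Cyp2d26 sit at or near 0 in the adult type, and Cyp39a1 is the probe with the higher adult-type median.

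Probes of the same gene differed in level. Over the 10 genes with several detected probes, the level differed by a median of 2.71-fold and at most 17.2-fold (Cyp3a16) between probes. All 10 had probes of 1 direction by total CPM. This had to hold, as 52 of the 53 detected probes had a lower adult-type mean and the exception, Cyp39a1, has 1 probe. The detection limit ran through a mixed group. Just inside lay Cyp11a1, Cyp2a4 and Cyp2a22, each with 3 libraries at 10 counts or more, and just outside lay second probes of Cyp2c29 and Cyp2s1 and the single probe of Cyp2d9, each with 2. Of the CYP2C genes in 1 stretch of neighbouring genes in RefSeq, 7 of 14 were detected. The count was 4 of 6 in the CYP3A stretch, 4 of 5 in the stretch of Cyp4a14 and Cyp4b1, and 3 of 8 in the CYP2D stretch. The other stretches of 5 or more genes held 3 of 8 (with Cyp2a5), 2 of 7 (CYP2J), 3 of 6 (with Cyp4f16) and 3 of 5 (with Cyp2s1). Over all members it was 42 of 90 genes.

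Markers of several other cell types moved with these groups, and others did not. The 10 hepatocyte markers included Alb, Apoa1, Fgb and Ttr. They summed to 3.33 to 18.6 CPM in the adult type and 475 to 1442 CPM in the newborn type. By total CPM 10 of 10 were lower in the adult type without overlap, where 61.4% of all detected probes were. With TMM factors 8 of 10 were, where 2171 of all 18767 detected probes were. By total CPM 5 of 5 islet, 5 of 5 endothelial, 5 of 5 fibroblast, 4 of 5 macrophage and 3 of 5 duct markers were also lower without overlap. With TMM factors 3 islet, 1 endothelial, 5 fibroblast, 1 macrophage and 2 duct markers were. Among lymphocyte, adipocyte and kidney tubule markers, 0 of 5, 0 of 5 and 0 of 4 lay apart on either scale. In the adult type, Apoa2, Fgb and Cps1 were at 0 in 5 of 8 libraries and Ttr was never below 2.75 CPM. The 5 enterocyte markers summed to 0.313 to 1.77 CPM and 34.4 to 698 CPM in adult-type and newborn-type libraries, and 3 of 5 lay apart. Lct was at 0 in 12 of the 14 newborn-type libraries. The 5 fibroblast markers summed to 35.98 to 83.3 CPM in the adult type and 1199 to 1920 CPM in the newborn type. The 4 measured acinar markers summed to 85930 to 95480 CPM in the adult type and 42850 to 61360 CPM in the newborn type, the defining cell type of the labelled tissue in both. Of these, Ctrb1 went the other way by total CPM and not with TMM factors, at 9036 to 13180 CPM in the adult type and 16890 to 27250 CPM in the newborn type. The part of these cells in the P450 differences was not tested.

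Within the newborn type, Cyp3a16 and Cyp2e1 followed the hepatocyte sum from library to library, and Cyp20a1 and Cyp4v3 had correlations near 0. Over the 14 libraries, summed Cyp3a16 had Pearson's r = 0.97 and Spearman's rho = 0.96 with the hepatocyte sum, and Cyp2e1 had r = 0.90 and rho = 0.89. For all 4 values the permutation p was 2e-05, the smallest that 100000 resamples can give, and 5e-05 after adjustment over 5 relations. Without the 2 libraries farthest from the median hepatocyte sum, r was 0.94 for Cyp3a16 and 0.89 for Cyp2e1. Cyp20a1 had r = -0.0076 and rho = 0.086 (permutation p = 0.947 and 0.768, adjusted 0.947 and 0.768), and Cyp4v3 had r = -0.18 and rho = -0.15 (permutation p = 0.554 and 0.616, adjusted 0.693 and 0.768). Without the 2 outermost libraries r was 0.0013 for Cyp20a1 and 0.049 for Cyp4v3. Libraries share litters and a common total, so the points are not fully independent, and the 5 relations were chosen after the values were seen.

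In the adult type, Cyp2e1 tracked the sum of 5 fat cell markers, and both were higher in libraries labelled dams than in those labelled pups. The 5 adipocyte markers (Adipoq, Plin1, Lep, Cfd, Fabp4) summed to 5.99 to 73.7 CPM there, highest in TCDD dam 8, the library with the most Cyp2e1. Over 8 libraries r was 0.98 (two-sided exact permutation p = 0.00203, adjusted 0.00339) and rho 0.83 (exact p = 0.0154, adjusted 0.0256). Without the 2 outermost libraries, one of them TCDD dam 8, r was 0.88 over 6. The sum was 21.03 to 73.7 CPM in the adult-type libraries labelled dams and 5.99 to 15.28 CPM in those labelled pups. The correlation was not tested apart from this split by label. Fabp4 was the largest part of the adult-type sum, with a median of 13.94 CPM where the sum had 18.15 CPM. Adipoq was at 0 in 3 of the 8 libraries. The newborn type had 23.6 to 40.6 CPM of the same sum, nearly all from Fabp4, with Adipoq at 0 in 10 of 14 libraries. The part of fat tissue in the adult-type Cyp2e1 level was not tested.

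**Figure D3:**
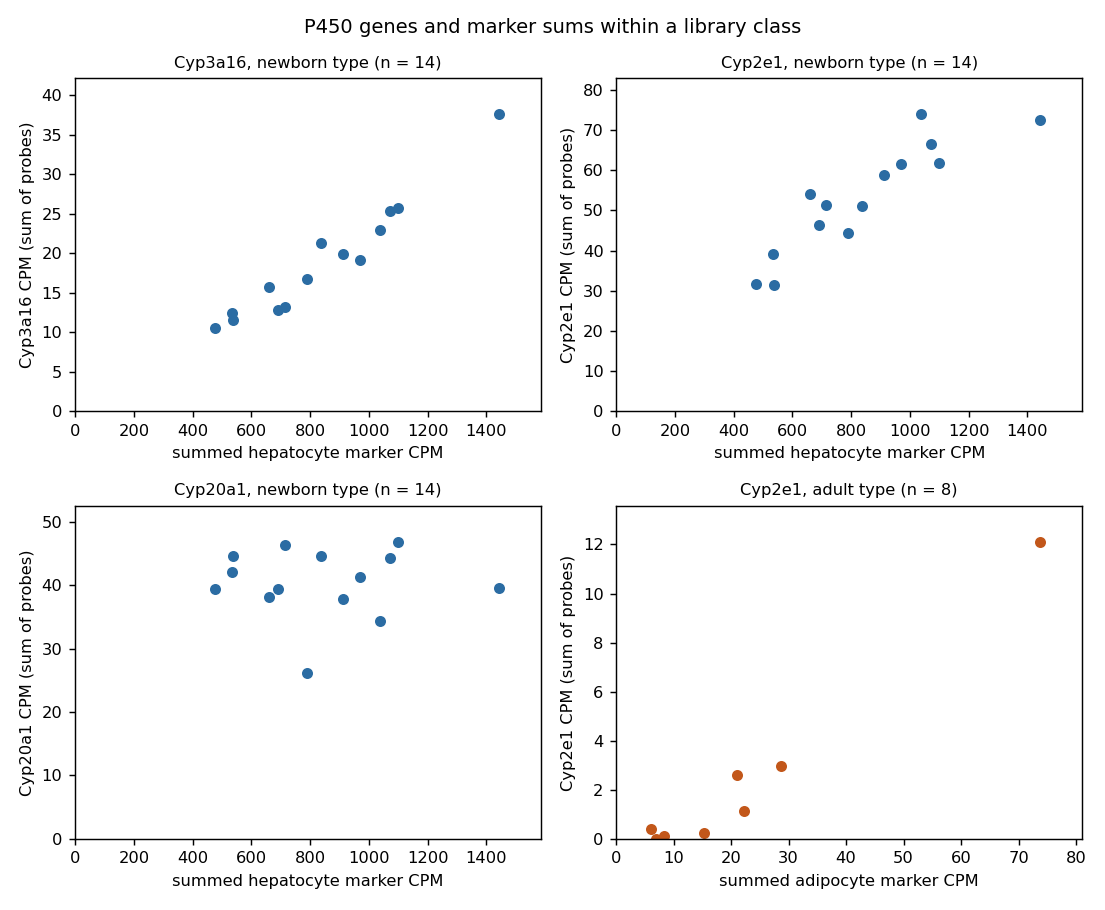
CPM of Cyp3a16, Cyp2e1 and Cyp20a1 (sums of their probes) against the summed CPM of 10 hepatocyte markers in the 14 newborn-type libraries, and of Cyp2e1 against 5 adipocyte markers in the 8 adult-type libraries. Each point is a library. Cyp3a16 and Cyp2e1 climb with the hepatocyte sum (r = 0.97 and 0.90), Cyp20a1 has r = -0.0076, and TCDD dam 8 is the point at upper right of the adult-type panel.

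Genes that serve P450 enzymes went with the bulk of transcripts. Of 15 partner genes, 10 were lower in the adult type without overlap and 0 higher, near the 61.4% of all detected probes, and with TMM factors 1 was lower and 1 higher without overlap. The reductase gene Por stood at 1.93, 4.06 and 7.14 CPM in the adult type and 11.2, 16.4 and 22.6 CPM in the newborn type. The mitochondrial ferredoxin gene Fdx1 stood at 28.4, 34.5 and 38.3 CPM and 47.4, 81.8 and 97.8 CPM in the same order of classes. Of 17 regulator genes, 11 were lower without overlap and 0 higher, again near 61.4%, and with TMM factors 2 were lower and 2 higher. On the TMM scale 2171 of all 18767 detected probes were lower and 1264 higher without overlap. No gene of the partner, regulator or retinoid lists passed in any edgeR comparison described below, where 0.0% of all probes passed in each. The outcome thus says nothing particular to these lists, which were not counted with DESeq2. The xenobiotic receptors Nr1i2 (PXR) and Nr1i3 (CAR) had medians of 0 and 0 CPM in the adult type and 2.19 and 4.35 CPM in the newborn type. Ahr, the dioxin receptor, stood at 0.0522 to 1.395 CPM in the adult type and 2.63 to 5.53 CPM in the newborn type. The liver and pancreas factor Hnf4a kept 3.91 to 9.62 CPM in the adult type and 12.8 to 28.9 CPM in the newborn type.

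For the effect of the TCDD label, the labelled groups were compared with edgeR's quasi-likelihood test over all probes, with Benjamini-Hochberg adjustment and a threshold of 0.05. No P450 probe passed in the dams (27 member probes tested), the female pups (47) or the male pups (36), where 0.0% of all probes passed in each. At an unadjusted p under 0.05 the counts were 0 of 27, 1 of 47 and 2 of 36 members. Over all probes they were 150 of 15594, 299 of 17513 and 2703 of 16176. DESeq2 called 0, 0 and 1 members in dams, female pups and male pups. Over all probes it called 0 of 27478, 0 of 28109 and 476 of 27288 in the same order. With the library class as a term over all 22 libraries, no member passed either (46 tested, 0.0% of all probes called, and DESeq2 also 0). At an unadjusted p under 0.05 there were 1 of the 46 members and 360 of all 17676 probes. A difference in the share of adult-type libraries between groups goes with these comparisons, and it was 2 of 4 against 2 of 4 in TCDD and Control dams, 1 of 4 against 0 of 3 in female pups and 3 of 4 against 0 of 3 in male pups.

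In the dams, Cyp20a1 and Cyp27a1 had the smallest p, with log2 fold changes of TCDD over Control of 0.28 ± 0.17 and 0.55 ± 0.57 (SE; adjusted p = 1.0 for both). In the female pups Cyp4f17, a fatty acid hydroxylase, stood at 0.614, 0.840, 1.13 and 1.24 CPM in the TCDD libraries 11, 8, 10 and 6, against 0.303, 0.347 and 0.373 CPM in the Control libraries 4, 7 and 2. All 4 TCDD libraries, the adult-type one included, were above all 3 Control libraries, on 11 to 21 and 4 to 5 counts. The share of all probes with such an order was not counted, and this probe was picked for its small p. TCDD and Control overlapped for it in the male pups (0.157 to 0.698 and 0.125 to 0.802 CPM). They also overlapped in the dams (0.184 to 0.609 and 0.372 to 0.874 CPM). Its log2 fold change was 1.95 ± 0.76 (edgeR adjusted p = 0.996), so the difference did not pass. Cyp3a44 (Cyp3a44_29466) had -1.76 ± 0.98 (adjusted p = 0.996), with 2 of 4 TCDD libraries at 0 counts.

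In the male pups Cyp39a1 stood at 3.56, 4.28, 6.21 and 7.44 CPM in TCDD libraries 6, 11, 10 and 8, against 1.16, 1.74 and 2.36 CPM in Control libraries 2, 7 and 4. The groups did not overlap, and the 3 highest TCDD libraries were of adult type. The share of all probes without overlap between these groups was not counted. The log2 fold change was 3.32 ± 0.71 with edgeR (adjusted p = 0.273), which did not pass, and 3.29 ± 0.65 with DESeq2 (adjusted p = 0.000213), which did. Cyp4f13 (Cyp4f13_64779) had 2.07 ± 0.76 (edgeR adjusted p = 0.275). With the class as a term, Cyp39a1 lay at 0.18 ± 0.19 (adjusted p = 1.0), and the members with the smallest p were Cyp3a13 at -0.41 ± 0.17 and Cyp2c69 at -0.997 ± 0.64 (adjusted p = 1.0 for both).

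One library decided the male comparison. Without TCDD male pup 6, the remaining 3 TCDD libraries were all of adult type and the 3 Control libraries all of newborn type, so label and class cannot be told apart. Then 19 of 30 member probes passed, 17 lower in TCDD, where 23.3% of all probes were, and 2 higher, where 18.6% were. The 2 were Cyp39a1 and Cyp4f13 (Cyp4f13_64779), and Cyp2d26, Cyp2c68 and Cyp3a16 were among the 17. Without the 3 male pups against the stage label, no member passed.

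**Figure D4:**
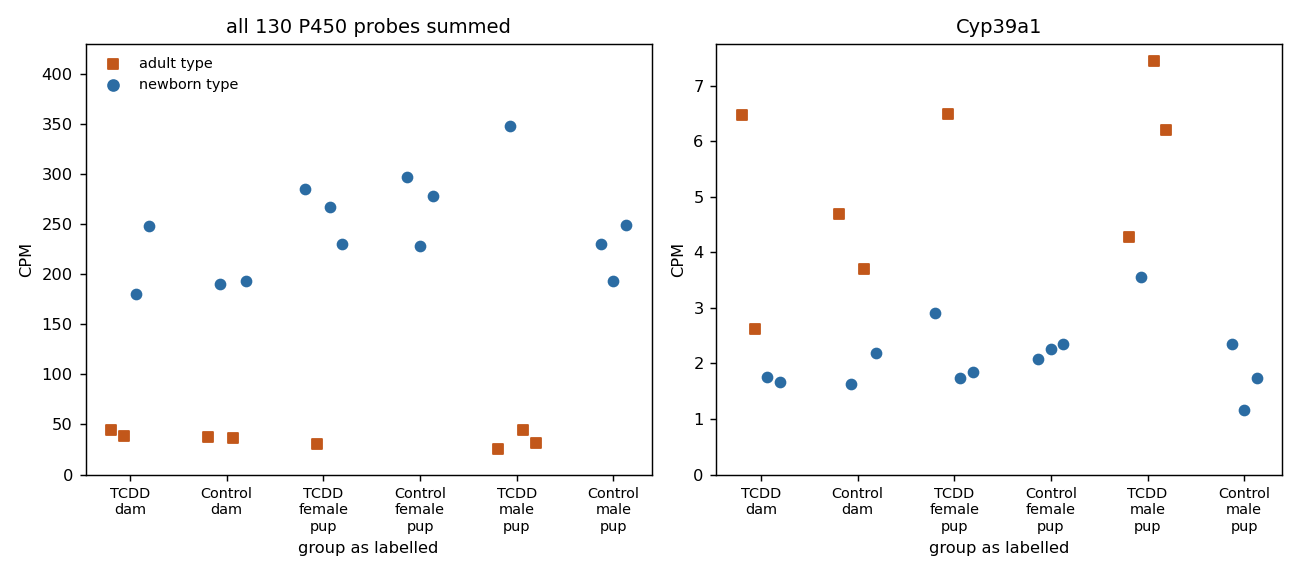
Summed CPM of all 130 P450 probes (left) and CPM of Cyp39a1 (right) in each library by labelled group, TCDD left of Control, with squares for adult-type and circles for newborn-type libraries. The sum is 25.4 to 44.9 CPM in every adult-type library and 180.5 to 348 CPM in every newborn-type one whatever the label, and TCDD male pup 6 is the only circle in its group.

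Dams and pups were compared by label over the same 22 libraries. The fit is coded as pups over dams, so a positive value is lower in dams. No member passed (52 tested, 0.0% of all probes called). At an unadjusted p under 0.05 there were 5 of the 52 members and 516 of all 18539 probes. DESeq2 called 0 members and 18 of all 29379 probes. Cyp2c54 (Cyp2c54_30019) and Cyp2a12, a liver P450, had the smallest p, with pups-over-dams log2 fold changes of 1.83 ± 0.70 and 1.42 ± 0.64 (edgeR adjusted p = 0.995 for both). With the 8 libraries against the stage label left out, 4 dams, all of adult type, and 10 pups, all of newborn type, remained, so stage label and class cannot be told apart. The libraries were chosen on measured Afp and Pnlip, and the values that follow restate that choice and are no independent test. Of 62 members, 36 were past the threshold. Of these, 31 were lower in dams, where 25.0% of all probes were, and 5 higher in dams, where 18.6% were. Those 5 were Cyp39a1, Cyp4f17, Cyp4f13 (Cyp4f13_75067), Cyp3a13 and Cyp2j6, with pups-over-dams log2 fold changes (± SE) of -2.79 ± 0.25, -1.66 ± 0.59, -1.20 ± 0.38, -0.72 ± 0.22 and -0.68 ± 0.27. Cyp3a16 (Cyp3a16_81845) and Cyp2d26 lay at 6.92 ± 0.47 and 6.59 ± 0.50.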

How the data were processed

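Whole pancreas RNA of 22 animals was read with the TempO-Seq panel for all mouse transcripts (Illumina NextSeq500), per the labels' protocols. The submitters' processing notes name bcl2fastq 2.17.1.14. The aligner and genome build were not given in the sources used here. The authors deposited whole-number raw counts per probe, not normalized. No molecular identifiers are described, so a count is a read, and near-identical P450 genes can share signal.

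CPM used each library's total. Tests used R 4.3.3 and edgeR 4.0.16 (filterByExpr, TMM, glmQLFit, glmQLFTest, Benjamini-Hochberg over all tested probes, threshold 0.05). Standard errors were the fold change over the root of its F value. DESeq2 1.42.0 and limma 3.58.1 served as alternatives. The members and lists were chosen with earlier results of these data known.

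Named probes were the 12 most abundant, the 8 largest and 8 smallest class ratios at a mean of at least 10 counts in the higher class, the 2 smallest p of each comparison and up to 3 on each side of the detection limit. Others are named in their role group, and single libraries of Cyp2c70 and Cyp2a5 were singled out after their values were seen. Replicates are separate animals, and all replicate pairs differed by more than sampling noise (chi-square over its degrees of freedom at least 7.47). The number in the labels marks the litter shared by a dam and its pups. The deviations of same-litter libraries from their group means had correlations of -0.715 to 0.706. The dam and TCDD pup groups mixed the 2 classes, so these values carry class as well as litter. They cannot show whether litter mates deviate together there. Control female and male pups were all of newborn type, and their same-litter pairs had correlations of -0.00396, 0.0185 and 0.0524.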

Additional observations from a re-analysis of the deposited data

Results flagged for a closer look

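Of 21 sets of values checked for 1 library far from the rest of its group, 4 were marked, where chance marks about 1 in 20. In the group labelled TCDD male pup, the summed P450 probes stood at 348 CPM in replicate 6, and the next value was 44.9 CPM. That library was of newborn type and the other 3 of adult type. In the adult type, the 3 Cyp2e1 probes stood at 4.95, 5.20 and 1.96 CPM in TCDD dam 8, with next values of 1.01, 1.76 and 0.356 CPM. The 3 probes count 1 gene in 1 library and are not separate observations. The adipocyte marker sum of that library was 73.7 CPM, the highest of all, and its part in the Cyp2e1 level was not tested.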

How the results depend on the processing

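The number of detected members was 71 at 5 counts, 36 at 20 counts and 40 at 1 CPM, in place of 53. The 52 members lower in the adult type became 41 with TMM factors, 49 without the 20 most abundant probes, 51 by medians and 52 without libraries against the stage label, and 41 of 42 genes were lower with probes summed. Class ratios of 23 named probes under 4 other settings gave 92 values, of which 41 moved by less than the spread between libraries, 44 moved by more and 7 changed sign, all 7 with TMM factors: Cyp27a1 0.22, Cyp2j6 0.28, Cyp2r1 0.071, Cyp2s1 0.15, Cyp3a13 0.62, Cyp4b1 0.54 and Cyp4f13 (Cyp4f13_75067) 0.94. The scaling factors, 0.363 to 0.593 in the adult type and 1.19 to 1.83 in the newborn type, move every ratio by construction. For the male pups the member count was 0 to 19 when 1 library was left out (19 without TCDD male pup 6) and 1 with DESeq2, and for pups against dams it was 36 without libraries against the stage label; the causes were not tested. In the remaining settings for the 5 comparisons, namely RLE scaling, no filter, DESeq2, leaving out each replicate and leaving out libraries against the stage label, it was 0. With the litter as a replicate block, it was 0 for the TCDD label with class as a term and 0 for pups against dams, so the block changed no call; within newborn-type or adult-type libraries alone it was also 0. Low counts limit the class ratios: 31 of 53 detected members reached 10 counts in no adult-type library.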

Other observations

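Of the P450 genes whose symbols fall outside the naming pattern, Cyp3a41b, Cyp3a41a and Cyp51 were lower in the adult type by total CPM. Cyp3a41b, a close relative of Cyp3a16, stood at 0, 0.269 and 1.37 CPM (lowest, median, highest; sum of 2 probes) in the adult type and 12.1, 24.2 and 38.2 CPM in the newborn type. Cyp3a41a stood at 0 to 0.781 CPM in the adult type and 6.33 to 20.4 CPM in the newborn type. Cyp51, which makes sterols in every cell, stood at 0.679 to 3.18 CPM in the adult type and 3.84 to 8.14 CPM in the newborn type. The classes did not overlap for these 3 genes by total CPM, where 61.4% of all detected probes lay apart in that direction. Values with TMM factors are not given for them, and the order of a gene can turn on that scale. Cyp2ab1, Cyp4a12a, Cyp4a12b and Cyp4a30b were at a median of 0 CPM in both classes, and the CYP1 genes were left out by the rule. In the newborn type the enterocyte markers were uneven, with 227 CPM in TCDD male pup 6 and 698 CPM in Control male pup 4, where the median was 73.6 CPM. Cyp3a16 in TCDD male pup 6 was 37.6 CPM and in Control male pup 4 21.3 CPM, against a newborn-type median of 17.9 CPM.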
